A study of Mus musculus with 6 samples.

Results

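Zinc transporters and metallothioneins were followed in RNA from reporter-marked cells sorted from the mouse prostate, as 10 gene symbols fixed by name: the exporters of the Slc30 family Slc30a1, Slc30a2, Slc30a4, Slc30a5 and Slc30a7, the importers of the Slc39 family Slc39a1, Slc39a7 and Slc39a8, and the metallothioneins Mt1 and Mt2. They are 10 of the 24498 gene symbols counted, and all 10 passed the filter on low counts that left 13846 genes for testing. The cells were sorted from male mice in 3 groups of 2 libraries each. The Clu intact group came from Clu-CreER(T2) mice bred to carry the reporter allele Gt(ROSA)26Sortm14(CAG-tdTomato)Hze, from a B6.Cg strain, in which an inducible Cre recombinase under control of the clusterin gene switches on the red reporter tdTomato, and these mice were left intact. The Nkx castrate and Nkx intact groups came from Nkx3.1-CreER(T2) mice bred to carry the reporter allele Gt(ROSA)26Sortm1(EYFP)Cos, from a B6.129X1 strain, in which the inducible Cre switches on the yellow reporter EYFP. Mice were castrated or left intact at 8 weeks of age and tissue was taken 4 weeks later. Clu-marked cells thus differ from Nkx-marked cells in the driver, in the reporter and in the strain that the reporter allele came from. The labels do not say that the libraries of a group are from separate animals. The p-values therefore reflect variation among libraries that could be technical alone.

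Zinc moves through cells by transporters of opposite direction. Proteins of the Slc30 (ZnT) family carry zinc out of the cytosol, across the plasma membrane or into vesicles and the secretory pathway, while those of the Slc39 (ZIP) family carry it into the cytosol. Metallothioneins are small cysteine-rich proteins that bind zinc in the cytosol, and their genes are induced by the zinc-sensing transcription factor Mtf1. The prostate, above all its lateral lobe in rodents, accumulates and secretes zinc to an unusual degree.

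Mt1, Mt2 and Slc30a1 are textbook targets of Mtf1, which binds metal response elements, and their promoters are shown for that reason. The stretches are the 250 bases before the start of transcription in RefSeq on build GRCm38.p6, with the core of the metal response element (TGCACNC or TGCGCNC, on either strand, matches allowed to overlap) in capitals. All 3 lie on the plus strand, Mt1 at chr8:94178839-94179088, Mt2 at chr8:94172368-94172617 and Slc30a1 at chr1:191906531-191906780.
Mt1: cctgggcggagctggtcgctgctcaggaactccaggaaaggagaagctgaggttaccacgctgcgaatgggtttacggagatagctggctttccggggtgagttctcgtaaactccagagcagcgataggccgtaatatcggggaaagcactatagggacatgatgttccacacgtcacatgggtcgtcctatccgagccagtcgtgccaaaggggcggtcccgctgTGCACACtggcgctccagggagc
Mt2: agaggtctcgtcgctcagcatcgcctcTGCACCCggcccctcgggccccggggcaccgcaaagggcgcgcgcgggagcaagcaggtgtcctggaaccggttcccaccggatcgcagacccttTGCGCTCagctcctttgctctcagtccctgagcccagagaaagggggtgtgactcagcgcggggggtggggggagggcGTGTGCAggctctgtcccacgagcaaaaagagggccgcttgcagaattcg
Slc30a1: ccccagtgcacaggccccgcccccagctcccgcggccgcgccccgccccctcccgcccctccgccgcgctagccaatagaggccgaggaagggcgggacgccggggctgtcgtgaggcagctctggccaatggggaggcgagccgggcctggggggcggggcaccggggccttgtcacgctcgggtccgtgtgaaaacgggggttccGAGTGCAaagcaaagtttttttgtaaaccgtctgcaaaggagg
In the whole window, which runs from 250 bases before to 50 bases after the start, the core occurred 3 times for Mt1, 4 times for Mt2 and 2 times for Slc30a1. Of these, 1, 3 and 1 lay before the annotated start and are printed, and the rest lay at or after it. The start used in these cells was not checked, so the printed stretches may miss parts of a promoter. Of all 32851 windows in the table, 25.7% held at least 1 match, 7.11% at least 2, 1.97% at least 3 and 0.517% at least 4. Among the other members the windows of Slc30a4, Slc30a2 and Slc30a5 held 3, 2 and 1, those of Slc30a7, Slc39a1 and Slc39a7 held 0, and the 2 windows of Slc39a8 held 0 and 1. The bases before the annotated start of Slc30a2 hold coding sequence, so its 2 matches may not lie in a promoter. These are matches of letters in a window and not measured binding.

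Read counts assigned to genes lay between 10220118 and 17412874 per library. Levels are given as CPM, which is read counts scaled to library size, with TMM factors, and 1 count was worth 0.0561 to 0.0988 CPM. Comparisons used edgeR's quasi-likelihood test over all 13846 genes, and a gene is called where its Benjamini-Hochberg adjusted p was under 0.05. Clu, the clusterin gene, had 1808 and 1934 CPM in Clu intact, 721 and 844 CPM in Nkx castrate and, in Nkx intact, 323 and 245 CPM. The 10 distal luminal markers summed to 8567 and 6799 CPM in Clu intact, 264 and 410 CPM in Nkx castrate and, in Nkx intact, 15331 and 19843 CPM. Basal markers were present in every group, with sums between 3120 and 5583 CPM over 10 genes. These sums hide differences between the groups. Krt15 alone had 981 to 1299 CPM and was not called in any comparison. Against Nkx intact, 2 of the 10 were lower and 0 higher in Nkx castrate, and 4 were lower and 0 higher in Clu intact. Trp63 was 5.05-fold lower in Nkx castrate (edgeR adjusted p = 0.00753) and 12.9-fold lower in Clu intact (edgeR adjusted p = 0.00127). Lamb3 was 3.26-fold and 3.83-fold lower in the same order. Nkx castrate 1 stood apart in markers of other cells. Its 12 leukocyte markers summed to 445 CPM against 42.7 to 189 CPM in the other 5 libraries, and its 12 stromal markers to 2210 CPM against 552 to 762 CPM. Endothelial markers, 8 genes, had sums of 866 and 350 CPM in Clu intact, 328 and 44.5 CPM in Nkx castrate and, in Nkx intact, 51.7 and 30.7 CPM. The leukocyte marker Ptprc was low but not at 0, between 2.51 and 19.4 CPM. The 6 seminal vesicle markers summed to 4.98 and 0 CPM in Clu intact, 0.112 and 0 CPM in Nkx castrate and, in Nkx intact, 81.3 and 148 CPM.

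In comparisons among members, levels are CPM per kilobase of merged exon. Mt1 was the highest of the 10 in every group, with means per kb of 232 ± 88.9 CPM (Clu intact), 357 ± 12.8 CPM (Nkx castrate) and 703 ± 39.4 CPM (Nkx intact) (SD, n = 2 each). What stood next differed by group. In Clu intact it was the importer Slc39a8 at 71.1 ± 12.4 CPM per kb, followed by Slc39a1 at 34.3 ± 1.33, Slc30a2 at 27.1 ± 0.530 and Mt2 at 23.9 ± 3.76 (SD, n = 2 each). In Nkx castrate it was Mt2 at 39.6 ± 1.67, then Slc39a1 at 23.3 ± 2.10 and Slc39a8 at 9.29 ± 0.562 CPM per kb, with Slc30a2 in the 7th place at 4.76 ± 0.166 (SD, n = 2 each). In Nkx intact it was Mt2 at 63.2 ± 12.8, then Slc30a2 at 42.8 ± 8.12, Slc39a1 at 24.4 ± 3.78 and Slc39a8 at 15.4 ± 2.82 CPM per kb (SD, n = 2 each). At the low end stood Slc39a7 at 2.33 ± 0.308 in Clu intact and 1.73 ± 0.667 in Nkx castrate, and Slc30a1 at 2.42 ± 1.11 in Nkx intact (SD, n = 2 each). The place of Slc39a7 is uncertain, since 80.7% of its exon bases are shared with another gene model and reads there may not have been counted. Neighbours whose libraries overlapped were Slc30a7 and Slc30a4 in Clu intact, Slc39a8 and Slc30a5, Slc30a5 and Slc30a4, Slc30a2 and Slc30a1, and Slc30a1 and Slc30a7 in Nkx castrate, and Slc30a7 and Slc30a4 in Nkx intact.

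**Figure D1:**
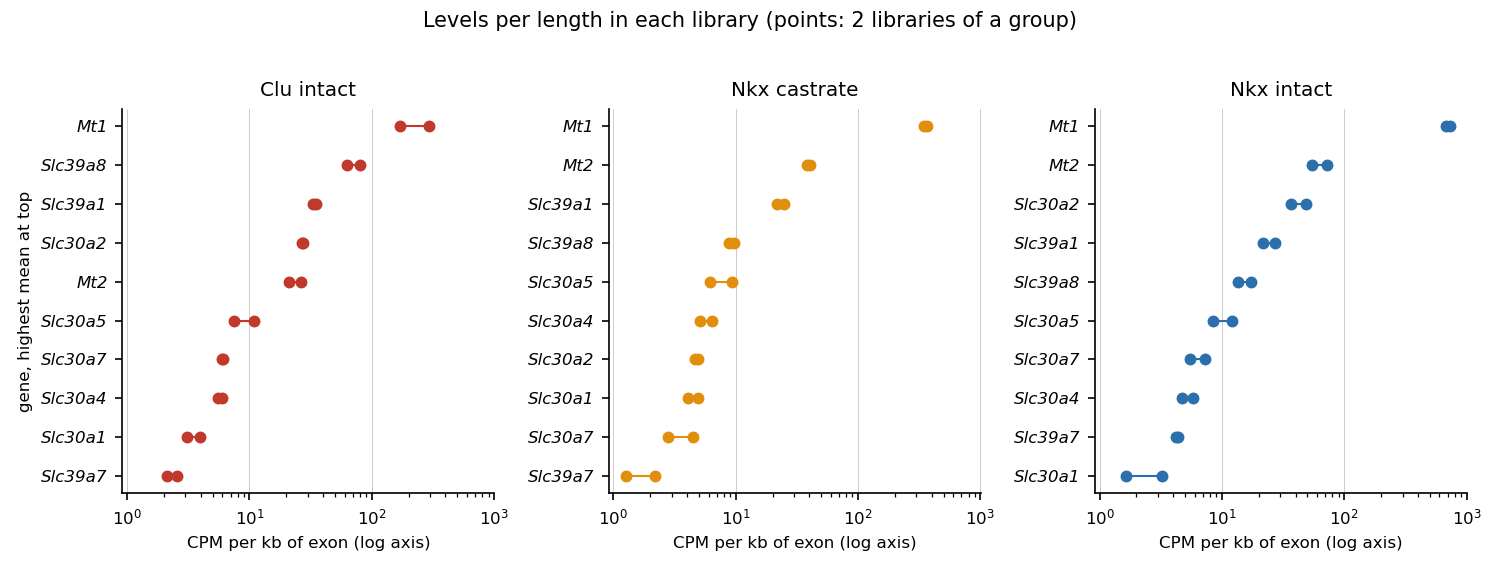
Level of each of the 10 genes in CPM per kilobase of merged exon (log axis), 1 panel per group, genes ordered by their mean and points for the 2 libraries of a group. Mt1 leads in each panel, and Slc30a2 stands 4th in Clu intact, 7th in Nkx castrate and 3rd in Nkx intact.

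The exporter Slc30a2 (ZnT2), which loads zinc into secretory vesicles and is known for zinc secretion into milk, was the member that changed most after castration. It had 17.4 and 16.6 CPM in Nkx castrate, against 132 and 173 CPM in Nkx intact. Both castrate values lay below both intact values, and the castrate libraries differed by 1.05-fold. The fall was 8.97-fold (log2 fold change -3.16, SE 0.21, edgeR Benjamini-Hochberg adjusted p = 0.000439). In Clu intact Slc30a2 had 95.3 and 97.9 CPM, 5.68-fold above Nkx castrate (log2 fold change 2.51, SE 0.20, edgeR adjusted p = 0.00041). Against Nkx intact the Clu intact libraries were both lower, but the difference did not pass (log2 fold change -0.66, 95% interval -1.10 to -0.22, edgeR adjusted p = 0.0662). It was called in 5 of 16 alternatives, among them DESeq2 (adjusted p = 0.0287) and edgeR without Nkx castrate 1 (adjusted p = 0.0135) or Nkx castrate 2 (adjusted p = 0.0164). In bulk RNA, fewer cells of a type and less RNA per cell cannot be told apart, and Slc30a2 moved beside the distal luminal markers, of which 7 of 10 were lower and 0 higher in Nkx castrate than in Nkx intact, and beside the seminal vesicle markers, of which 4 of 5 tested were lower. Their part in the result was not tested.

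By the likeness of log2 CPM over the 6 libraries, among 9030 other genes with a mean of at least 10 CPM, the closest genes to Slc30a2 were Pbsn, the secretory protein probasin (Pearson r = 0.996), Aldh1a1, a retinaldehyde dehydrogenase (r = 0.996), and Map2k2, a kinase of the MAP kinase cascade (r = 0.996). The libraries fall into 3 groups of 2, so the points behind each r are not independent. Aldh1a1 ran at 160 and 194 CPM in Clu intact, 21.3 and 16.3 CPM in Nkx castrate and, in Nkx intact, 288 and 316 CPM. Map2k2 covered a far smaller range, with 136 and 133 CPM, 92.3 and 88.5 CPM, and 151 and 153 CPM in the same order.

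**Figure D2:**
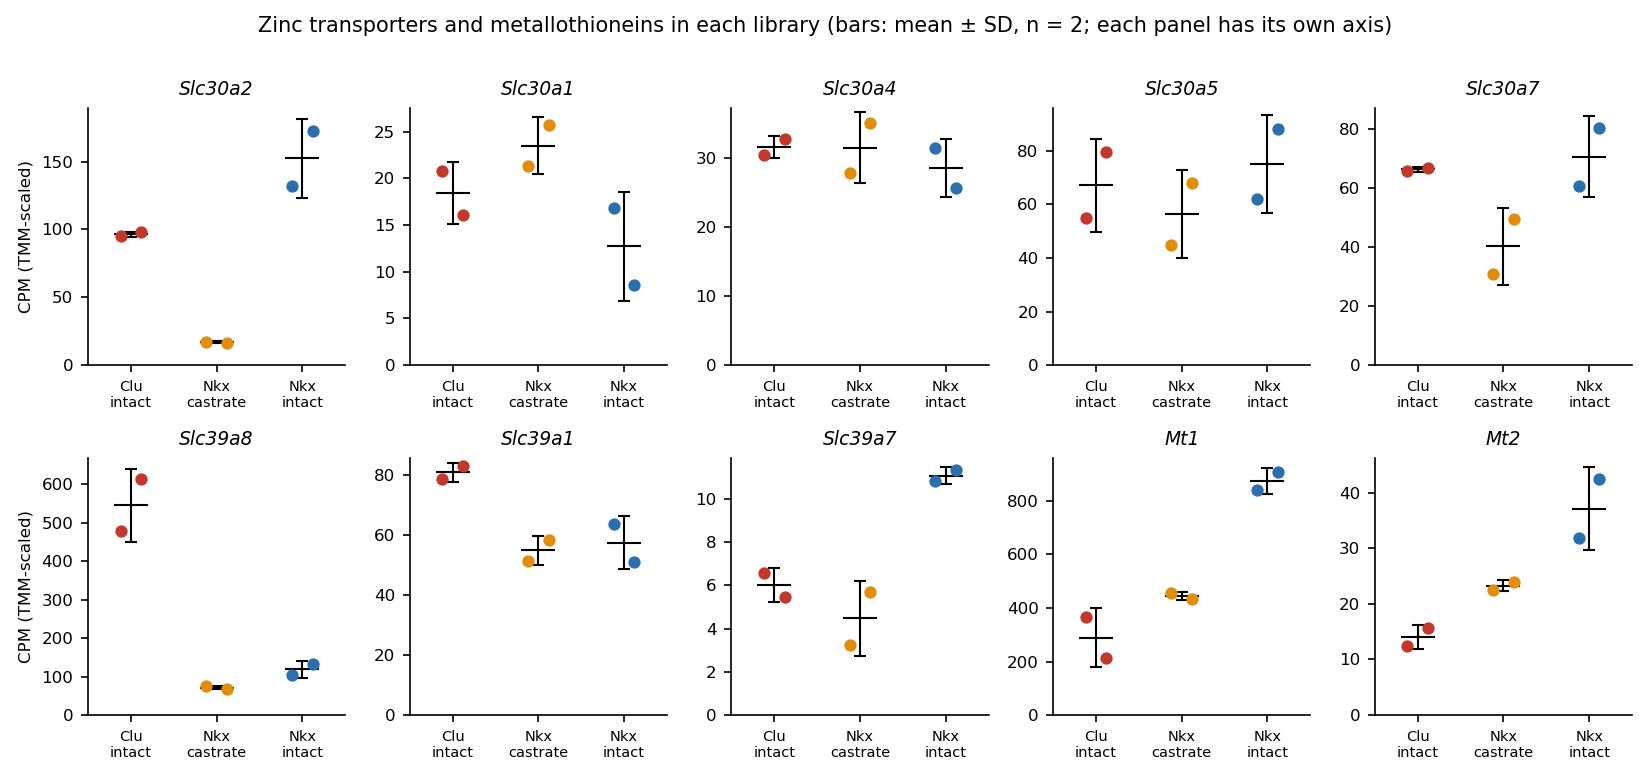
CPM of each of the 10 genes in every library (points), with group mean and SD (n = 2), in the order Clu intact, Nkx castrate, Nkx intact; axes start at 0 and differ between panels. Slc30a2 is low in both Nkx castrate libraries (17.4 and 16.6 CPM), Slc39a8 is high in both Clu intact libraries (478 and 612 CPM), and Mt1 is highest in Nkx intact (841 and 910 CPM).

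The remaining 4 exporters were not called in any comparison. Slc30a1 (ZnT1), the exporter of the plasma membrane, had 20.8 and 16.1 CPM in Clu intact, 21.3 and 25.7 CPM in Nkx castrate and, in Nkx intact, 16.8 and 8.59 CPM. Its Nkx intact libraries differed 1.96-fold, the widest gap of any member within a group. Both castrate libraries lay above both intact libraries, and the difference was not called (log2 fold change 0.88, 95% interval 0.04 to 1.73, edgeR adjusted p = 0.194). Slc30a7 (ZnT7), a Golgi exporter, had 65.8 and 67.1 CPM in Clu intact, 30.98 and 49.6 CPM in Nkx castrate and, in Nkx intact, 60.9 and 80.4 CPM. The castrate libraries lay below those of the other groups without overlap. The difference from Nkx intact did not pass (log2 fold change -0.81, 95% interval -1.43 to -0.20, edgeR adjusted p = 0.113). With 1 library left out, it ran from -1.20, without Nkx castrate 2, to -0.51. The -1.20 rests on Nkx castrate 1 alone, the library that stood apart in leukocyte and stromal markers. Clu intact against Nkx castrate likewise did not pass (log2 fold change 0.72, edgeR adjusted p = 0.103). Here the log2 fold change ran from 0.42 to 1.11 with 1 library left out, the latter without Nkx castrate 2.

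Slc30a4 (ZnT4), a vesicular exporter, had 30.5 and 32.7 CPM in Clu intact, 27.9 and 35.2 CPM in Nkx castrate and, in Nkx intact, 31.6 and 25.7 CPM. Its groups overlapped throughout, and the 95% interval of its log2 fold change was -0.41 to 0.69 for castration, -0.40 to 0.69 for Clu intact against Nkx intact and -0.54 to 0.55 for Clu intact against Nkx castrate. Slc30a5 (ZnT5), which works in the early secretory pathway, had 54.8 and 79.4 CPM in Clu intact, 44.8 and 68.1 CPM in Nkx castrate and, in Nkx intact, 62.1 and 87.9 CPM. In each group the library numbered 2 was the higher, by 1.42- to 1.52-fold, and the groups overlapped. The 95% interval of its log2 fold change was -1.09 to 0.27 for castration.

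Among the importers, Slc39a8 (ZIP8), which carries zinc, manganese and other divalent metals across the plasma membrane, parted the Clu-marked cells from both Nkx groups. It had 478 and 612 CPM in Clu intact, 74.2 and 68.2 CPM in Nkx castrate and, in Nkx intact, 103 and 134 CPM. The 3 groups did not overlap. Slc39a8 was 4.61-fold higher in Clu intact than in Nkx intact (log2 fold change 2.20, SE 0.21, edgeR Benjamini-Hochberg adjusted p = 0.00103) and 7.65-fold higher than in Nkx castrate (log2 fold change 2.94, SE 0.22, edgeR adjusted p = 0.000282). Both calls held in all 16 alternatives. The lower level in Nkx castrate than in Nkx intact was not called (log2 fold change -0.73, 95% interval -1.21 to -0.26, edgeR adjusted p = 0.0714) but was with DESeq2 (adjusted p = 0.0194). With 1 library left out, the log2 fold change ran from -0.92 to -0.54. Endothelial markers were also higher in Clu intact, with 5 of 8 called against Nkx intact, and their sum was 866 CPM in Clu intact 1 and 350 CPM in Clu intact 2. The proximal luminal markers summed to 7975 and 9067 CPM in Clu intact, 2903 and 4102 CPM in Nkx castrate and, in Nkx intact, 1017 and 1020 CPM. Clu, the driver gene, is among them, so the sum is not independent of how the cells were marked. Within the list, Krt19 had 1855 and 2881 CPM in Nkx castrate and Psca 9.43 and 1.92 CPM. The part of either list in the level of Slc39a8 was not tested.

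Slc39a1 (ZIP1), a widely expressed importer of the plasma membrane, had 78.8 and 83.2 CPM in Clu intact, 51.5 and 58.5 CPM in Nkx castrate and, in Nkx intact, 63.9 and 51.3 CPM. Clu intact lay above the other groups without overlap, but neither difference was called (log2 fold change 0.49, edgeR adjusted p = 0.162 against Nkx intact, and 0.56, edgeR adjusted p = 0.0908 against Nkx castrate). With 1 library left out, the log2 fold change against Nkx castrate ran from 0.47 to 0.66. Part of its transcript, 27.7% of 31-base stretches, is shared with other transcripts, chiefly a pseudogene of Slc39a1. How reads that match both were counted is not given in the sources used here. Slc39a7 (ZIP7), which releases zinc from the endoplasmic reticulum, had 6.58 and 5.46 CPM in Clu intact, 3.26 and 5.69 CPM in Nkx castrate and, in Nkx intact, 10.8 and 11.4 CPM. Nkx intact was highest, with no overlap with either group. The difference of Nkx castrate from Nkx intact did not pass (log2 fold change -1.31, 95% interval -2.37 to -0.25, edgeR adjusted p = 0.133). With 1 library left out, it ran from -1.77, without Nkx castrate 2, to -0.96. In GENCODE M21, 80.7% of the exon bases of Slc39a7 are also exon of another gene model on the same strand, Gm20427, so that its counts are uncertain.

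The metallothioneins were highest in Nkx intact and lowest in Clu intact. Mt1 had 368 and 211 CPM in Clu intact, 456 and 433 CPM in Nkx castrate and, in Nkx intact, 841 and 910 CPM. Mt2 had 12.5 and 15.6 CPM, 22.6 and 23.95 CPM, and 31.9 and 42.5 CPM in the same order. For both genes the 3 groups were separated without overlap. Against Nkx intact, Clu intact was 3.02-fold lower in Mt1 (log2 fold change -1.60, SE 0.26, edgeR Benjamini-Hochberg adjusted p = 0.00851) and 2.64-fold lower in Mt2 (log2 fold change -1.40, SE 0.26, edgeR adjusted p = 0.0141). The call of Mt1 was lost without either Nkx intact library (edgeR adjusted p = 0.0665 and 0.0795), and that of Mt2 without any of the 4 libraries compared (edgeR adjusted p of up to 0.136). Nkx castrate lay below Nkx intact by 1.97-fold in Mt1 (95% interval of the log2 fold change -1.58 to -0.38) and 1.60-fold in Mt2 (-1.27 to -0.08), and neither was called by edgeR (adjusted p = 0.0593 and 0.16), while DESeq2 called Mt1 (adjusted p = 0.00411). Mt1 was also called by edgeR when either Nkx castrate library (adjusted p = 0.0196 and 0.0337) or either Clu intact library (adjusted p = 0.0325 and 0.0335) was left out, and its adjusted p ran between 0.000182 and 0.3 over 16 alternatives. Clu intact and Nkx castrate did not differ beyond the threshold (log2 fold change -0.62 for Mt1 and -0.73 for Mt2, edgeR adjusted p = 0.141 and 0.0948). Of the 10 basal markers, 4 were lower and 0 higher in Clu intact than in Nkx intact. In Nkx castrate 2 were lower and 0 higher than in Nkx intact. The part of the basal markers in the metallothionein levels was not tested.

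Mt1 made up most metallothionein counts of the pair. Its share of Mt1 and Mt2 counts was 96.7% and 93.1% in Clu intact, 95.3% and 94.8% in Nkx castrate and, in Nkx intact, 96.3% and 95.5%, where the exact binomial 95% intervals, which cover counting error only, spanned 92.0% to 97.2% over all libraries. Mt1 and Mt2 shared no 31-base stretch with each other. For Mt2, 73.5% of exon bases lie opposite an exon of the gene model Gm45774, and since the strand setting of the counting is not given in the sources used here, reads of the 2 cannot be told apart. The genes most like Mt1 over the 6 libraries were Hdgfl3 (Pearson r = 0.994), Dtnb, the dystrobrevin beta gene (r = 0.986), and Ammecr1l (r = 0.982). Dtnb had 68.8 and 52.5 CPM in Clu intact, 71.4 and 74.7 CPM in Nkx castrate and, in Nkx intact, 103 and 96.4 CPM. Between members, the highest r over these 6 libraries was that of Slc39a1 and Slc39a8 (0.875), followed by Slc30a2 and Slc30a7 (0.863) and by Mt1 and Mt2 (0.862), and the lowest was that of Slc39a1 and Mt2 (-0.782).

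Counted over the 10 genes, 1 was lower and 0 were higher in Nkx castrate than in Nkx intact, where 4.59% of all tested genes were lower, 4.02% higher and 8.61% called in either direction. At an unadjusted p under 0.05 there were 6 lower and 1 higher (edgeR). The share of all tested genes under an unadjusted 0.05 was not computed, so such counts, here and below, cannot be set against it. DESeq2 called 3 members lower and 0 higher, where of 19899 genes 952 were lower and 973 higher. With limma-voom 1 member was lower and 0 higher, where of 13846 genes 602 were lower and 405 higher. The members had a median log2 fold change of -0.70, against 0.05 over all tested genes. The castrate libraries lay wholly below the intact libraries for 6 members and wholly above for 1, where 24.6% and 25.4% of all tested genes did so, and 49.9% in either direction. In Clu intact against Nkx intact, 1 member was higher and 2 were lower (of all tested genes 6.29% were higher, 5.0% lower and 11.3% either). The libraries of the groups were separate with Clu intact higher for 2 members and lower for 4, against 31.9% and 31.3% of all tested genes, or 63.2% in either direction. The members' median was -0.12 against -0.01. In Clu intact against Nkx castrate, 2 were higher and 0 lower (of all tested genes 8.82% were higher, 8.10% lower and 16.9% either). The libraries were separate for 4 members with Clu intact higher and for 3 with it lower, against 31.5% and 30% of all tested genes, or 61.4% in either direction. The median was 0.34 against -0.003 over all tested genes. For the 0 lower, an unadjusted p under 0.05 was reached by 2 members (edgeR), and DESeq2 and limma-voom called 0. The comparisons share libraries pairwise, so their counts are not independent of each other. Leaving out a library moved the number of members called, and moved that of all tested genes as well. A group then held only 1 library, so these moves are not read as a trait of the members.

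**Figure D3:**
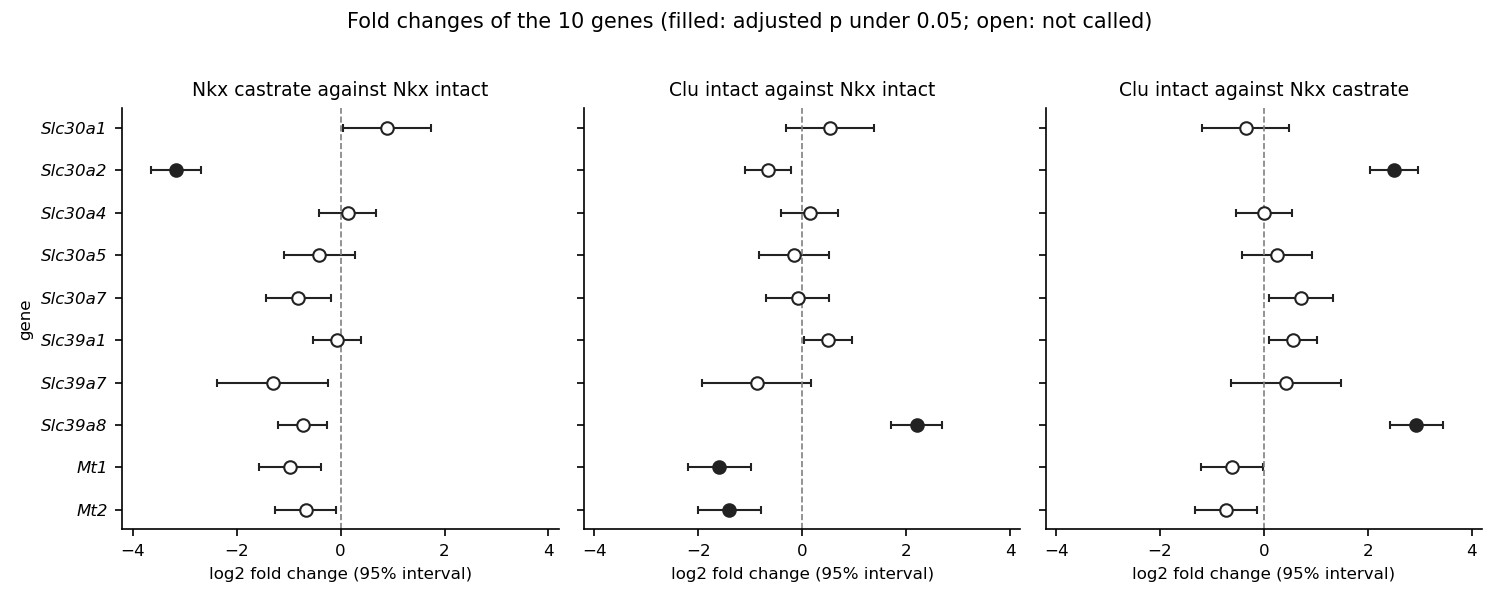
Log2 fold change with its 95% interval for the 10 genes in each comparison, positive where the first-named group is higher; filled points passed an adjusted p under 0.05 in edgeR's quasi-likelihood test. After castration Slc30a2 is the filled point at -3.16, and in Clu intact against Nkx intact Slc39a8 lies at 2.20 and Mt1 at -1.60.

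Of 22 other genes of zinc handling, 17 were tested. The 5 that were not, Slc30a3, Slc30a8, Slc39a5, Slc39a12 and Mt4, had at most 14 counts in a library. In Nkx castrate against Nkx intact 3 of the 17 were lower and 0 higher (4 and 1 at an unadjusted p under 0.05 in edgeR; DESeq2 called 4 lower and 0 higher, limma-voom 3 and 0). The median log2 fold change was -0.49, against 0.05 over all tested genes, of which 4.59% were lower and 4.02% higher. Mtf1, the zinc sensor, was not called in any comparison. Mt3, a metallothionein best known from the brain, had 9.53 and 4.33 CPM in Clu intact, 0 counts in both Nkx castrate libraries, and 15.7 and 17.7 CPM in Nkx intact. Taking 3 counts in both castrate libraries together as the limit, Mt3 was at least 174-fold lower in Nkx castrate than in Nkx intact (edgeR adjusted p = 0.00223) and at least 72.4-fold higher in Clu intact than in Nkx castrate (edgeR adjusted p = 0.00188). With 1 library left out, these limits were 75.2-fold without Nkx castrate 1 and 99.1-fold without Nkx castrate 2 for castration. For Clu intact against Nkx castrate they were 31.2-fold and 41.2-fold without the same libraries, and 45.2-fold without Clu intact 1.

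Azgp1, a secreted zinc-binding glycoprotein, took a different course from Slc30a2. It had 11.1 and 5.08 CPM in Clu intact, 14.6 and 11.01 CPM in Nkx castrate and, in Nkx intact, 286 and 252 CPM. It was 20.9-fold lower in Nkx castrate than in Nkx intact (log2 fold change -4.39, SE 0.36, edgeR adjusted p = 0.000879). It was also low in Clu intact (32.9-fold lower than Nkx intact, edgeR adjusted p = 0.000456; log2 fold change -5.04, and -5.71 without Clu intact 1), the group in which Slc30a2 had 95.3 and 97.9 CPM. Slc39a9 (ZIP9), an importer that also binds androgen, had 94.3 and 94.3 CPM in Clu intact, 39.2 and 60.1 CPM in Nkx castrate and, in Nkx intact, 96.7 and 92.3 CPM. It was 1.91-fold lower in Nkx castrate than in Nkx intact (edgeR adjusted p = 0.0462), a call lost without any of the 4 intact libraries (edgeR adjusted p from 0.0942 to 0.219).

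In Clu intact, 1 of the 17 was higher and 1 lower than in Nkx intact, where 6.29% of all tested genes were higher and 5.0% lower. Against Nkx castrate 5 of the 17 were higher and 0 lower, where 8.82% of all tested genes were higher and 8.10% lower. In this second comparison 6 were higher and 1 lower at an unadjusted p under 0.05 in edgeR. DESeq2 called 5 and 0 there, and limma-voom 4 and 0. Slc39a4 (ZIP4), the importer of dietary zinc in the gut, was the gene higher than in Nkx intact. It had 85.9 and 79.8 CPM in Clu intact, 5.28 and 11.4 CPM in Nkx castrate and, in Nkx intact, 11.9 and 12.3 CPM. Clu intact was 6.84-fold above Nkx intact (log2 fold change 2.77, SE 0.36, edgeR adjusted p = 0.00325, and 0.0515 and 0.0530 without either Nkx intact library) and 9.996-fold above Nkx castrate (edgeR adjusted p = 0.00125; log2 fold change 3.32, and 3.98 without Nkx castrate 2). Its difference between Nkx castrate and Nkx intact was not called (log2 fold change -0.55, edgeR adjusted p = 0.396). With 1 library left out, the log2 fold change ran from -1.20, without Nkx castrate 2, to -0.09. The -1.20 rests on Nkx castrate 1 alone, the library that stood apart in leukocyte and stromal markers. Slc39a3 (ZIP3) had 24.6 and 28.6 CPM in Clu intact, 14.03 and 10.8 CPM in Nkx castrate and, in Nkx intact, 15.97 and 18.96 CPM, and was 2.14-fold above Nkx castrate (edgeR adjusted p = 0.0322, and up to 0.242 without either Clu or either Nkx intact library).

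Slc39a9 and Slc30a10 completed the set that was higher in Clu intact than in Nkx castrate. Slc39a9 was 1.90-fold higher (edgeR adjusted p = 0.029, and up to 0.152 without an intact library). Slc30a10, a manganese exporter, was near the floor, with 18 and 14 counts in Clu intact, 0 in both Nkx castrate libraries, and 5 and 14 counts in Nkx intact. It was higher in Clu intact than in Nkx castrate (edgeR adjusted p = 0.0439), with 32 against 0 counts over the libraries and a lower limit of 11.4 for the ratio from an exact Poisson 95% interval that covers counting error only. This call was lost when any of the 6 libraries was left out (edgeR adjusted p from 0.0746 to 0.269). With 1 library left out, the number of these genes higher in Clu intact than in Nkx castrate moved, as did that of all tested genes.

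**Figure D4:**
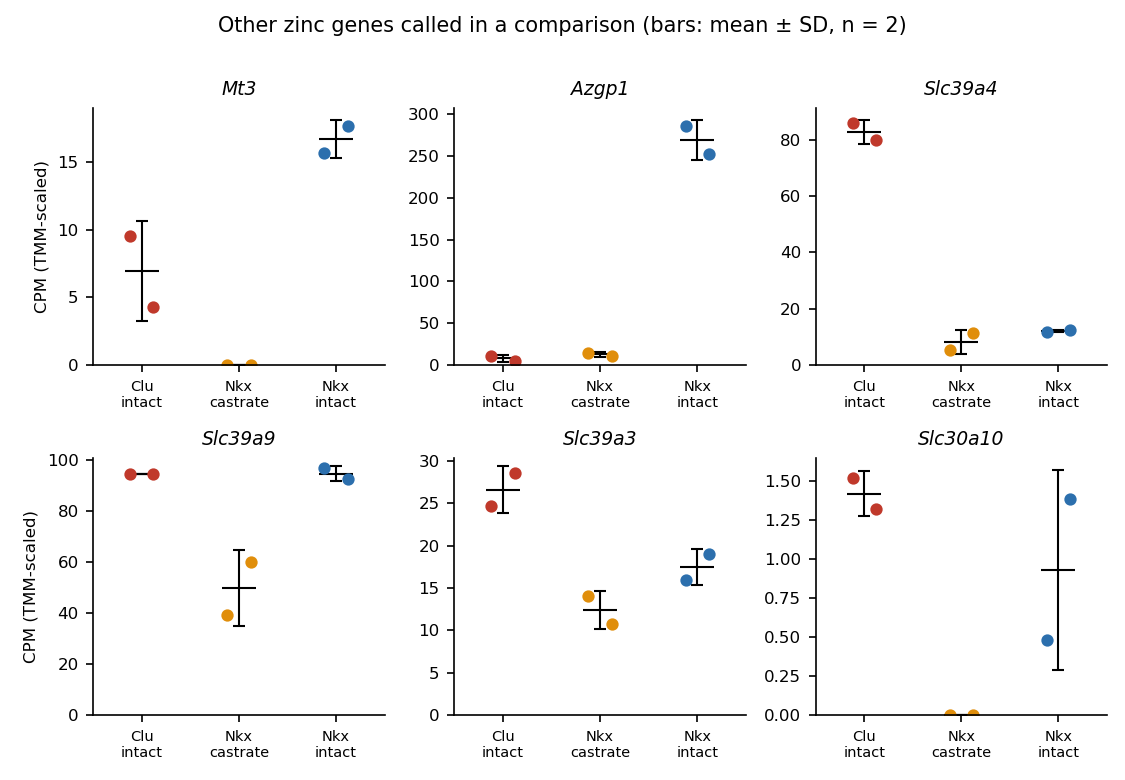
CPM in every library (points) of the 6 other zinc genes called in at least 1 comparison, with group mean and SD (n = 2), in the order Clu intact, Nkx castrate, Nkx intact. Mt3 and Slc30a10 are at 0 in both castrate libraries, Azgp1 is high in Nkx intact (286 and 252 CPM), and Slc39a4 is high in Clu intact (85.9 and 79.8 CPM).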

How the data were processed

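Raw read counts of 24498 gene symbols were deposited by the authors for the 6 libraries. STAR 2.7.9a, FastQC 0.11.9, featureCounts, Subread 2.0.1 and build GRCm39 are named in the submitters' processing notes. Per the labels' protocols, 2 ng of total RNA entered a stranded low-input kit. Not given in the sources used here are the annotation, the strand setting and how molecular identifiers were handled.

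Counts were filtered (filterByExpr), TMM-scaled and fitted with edgeR 4.0.16 (glmQLFit, R 4.3.3), with a mean per group over all 6 libraries and 3 residual degrees of freedom. Tests were two-sided. On simulated counts with 200 changed genes of 13846, the castration comparison called 60.0% of genes changed 4-fold and 9.6% of those changed 2-fold. Of its calls, 9.61% fell on unchanged genes, above the level that an adjusted p under 0.05 aims at. In the data that comparison called 1192 genes. The rates depend on how many genes change, so they need not hold for the data. Alternatives included DESeq2 1.42.0 and limma 3.58.1. Intervals of log2 fold changes come from the fit and include the spread between libraries, while binomial and Poisson intervals and floors (3 counts) cover counting error only.

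Members and lists were chosen with earlier results of these data known. Named were all members, other zinc genes called in a comparison, and the 3 genes most like Slc30a2 and Mt1. Exon lengths came from GENCODE M21, an earlier build.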

Additional observations from a re-analysis of the deposited data

How the results depend on the processing

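The 48 fold changes of members and other named zinc genes were recomputed under up to 16 alternatives, 764 values in all. Of these, 680 kept their direction and their side of the threshold, 31 became called, 32 were no longer called, and 21 changed sign, none of them a called value. The calls of Slc30a2 (castration, and Clu intact against Nkx castrate), Slc39a8 (both Clu comparisons), Mt3 (both castrate comparisons), Slc39a4 (Clu intact against Nkx castrate) and Azgp1 (both Nkx intact comparisons) held in every alternative. The values that changed sign were those of Slc30a4 in Clu intact against Nkx castrate (-0.014 with DESeq2 size factors, -0.042 with upper-quartile scaling, -0.017 with the stricter filter, -0.0105 with DESeq2, -0.0106 with the 2 groups alone, and -0.15 to 0.19 without a library), Slc39a9 in Clu intact against Nkx intact (0.0426 with library totals, 0.0021 with no filter, and -0.0331 to 0.0429 without a library), and, without a library, Slc30a4 (-0.0441 to 0.30) and Slc39a1 (-0.22 to 0.0889) after castration, Slc30a5 (-0.44 to 0.12) and Slc30a7 (-0.26 to 0.13) in Clu intact against Nkx intact, and Slc30a5 (-0.0203 to 0.59) in Clu intact against Nkx castrate. With the longest transcript in place of merged exons, Slc39a8 and Slc39a1 exchanged places in Nkx intact.

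Counts moved as follows, and the cause was not tested. Members lower after castration numbered 4 with no filter, 3 with DESeq2, 2 with the 2 groups alone and 4 with the replicate block (1 to 4 without a library). Other zinc genes lower after castration numbered 2 to 4 without a library. Members lower in Clu intact than in Nkx intact numbered 0 to 3 without a library. In Clu intact against Nkx castrate, members higher numbered 2 to 4 without a library, and members lower 1 with no filter. Other zinc genes in Clu intact against Nkx intact numbered 0 to 1 higher and 1 to 3 lower without a library, and 3 lower with the 2 groups alone. Against Nkx castrate they numbered 2 to 4 higher and 0 to 1 lower without a library, 2 higher with the 2 groups alone, and 2 lower with no filter. Over all tested genes, 556 were higher after castration (1197 with no filter, 973 with DESeq2, 297 with the 2 groups alone, 72 to 1220 without a library) and 636 lower (1103 with no filter, 374 with the 2 groups alone, 137 to 1323 without a library). In Clu intact against Nkx intact, 871 were higher (1467 with no filter, 1761 with the 2 groups alone, 214 to 1790 without a library) and 692 lower (1198 with no filter, 1101 with DESeq2, 1548 with the 2 groups alone, 157 to 1561 without a library). In Clu intact against Nkx castrate, 1221 were higher (417 to 2010 without a library) and 1121 lower (1736 with no filter, 270 to 1844 without a library).

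The replicate numbers do not pair libraries in the labels, and the differences between library 1 and library 2 correlated across genes at 0.09, 0.04 and 0.23 between groups. With the number as a block, 711 and 800 genes were called after castration, Mt1, Slc39a8 and Slc30a7 were among them (edgeR adjusted p = 0.0342, 0.0479 and 0.0490), Slc30a7 was also called in Clu intact against Nkx castrate (edgeR adjusted p = 0.0437), and Slc30a10 was no longer called there (edgeR adjusted p = 0.0615). With 2 libraries a group, no test of an outlying library applied.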

Other observations

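Of all tested genes, 8.61% were called in either direction in Nkx castrate against Nkx intact. The share was 11.3% in Clu intact against Nkx intact and 16.9% in Clu intact against Nkx castrate. Genes known to answer glucocorticoid, a hormone that also induces metallothioneins, were counted as a list of 10, all tested. In Nkx castrate against Nkx intact 1 was lower and 0 higher (4 and 0 at an unadjusted p under 0.05 in edgeR; DESeq2 called 2 lower and 0 higher, limma-voom 1 and 0). The gene was Fkbp5, a chaperone of steroid receptors that also answers androgen, with 33.6 and 19.3 CPM in Nkx castrate, against 193 and 143 CPM in Nkx intact (6.33-fold, edgeR adjusted p = 0.00552), a call lost without Nkx intact 1. With 1 library left out, here and below, a group held only 1 library and the calls over all tested genes moved as well. In Clu intact 4 were lower and 1 higher than in Nkx intact. The clock gene Per1 had 136 and 150 CPM in Clu intact and 858 and 720 CPM in Nkx intact (5.52-fold lower, edgeR adjusted p = 0.00103). Fkbp5 was the one that was higher, with 432 and 764 CPM in Clu intact (3.56-fold, edgeR adjusted p = 0.015). The number lower was 7 without either Nkx castrate library, 1 without Clu intact 1 or Nkx intact 1, and 2 without Clu intact 2, and the number higher was 0 without Clu intact 2 or either Nkx intact library. In Clu intact against Nkx castrate 3 were lower and 1 higher. Fkbp5 was the higher one (22.6-fold, edgeR adjusted p = 0.000529). Among those lower were Per1 (6.59-fold, edgeR adjusted p = 0.000532) and Errfi1, a feedback inhibitor of the EGF receptor (3.49-fold, edgeR adjusted p = 0.00125).

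Of 8 genes of the oxidative and electrophile response, all tested, 1 was higher and 0 lower in Nkx castrate than in Nkx intact (2 and 0 at an unadjusted p under 0.05 in edgeR; DESeq2 and limma-voom called 1 higher and 0 lower). It was Srxn1, the sulfiredoxin gene, with 73.9 and 76.9 CPM in Nkx castrate, against 22.4 and 25.4 CPM in Nkx intact (3.15-fold, edgeR adjusted p = 0.00614). In Clu intact Srxn1, with 62.5 and 44.3 CPM, and G6pdx, a dehydrogenase of the pentose phosphate pathway, were 2.24-fold and 1.94-fold above Nkx intact (edgeR adjusted p = 0.0176 and 0.0463), and 0 were lower (0 at an unadjusted p under 0.05 in edgeR, and 0 by DESeq2 and limma-voom). None was called in Clu intact against Nkx castrate (1 higher and 1 lower at an unadjusted p under 0.05 in edgeR and with DESeq2, and 0 and 0 with limma-voom), although leaving out Nkx castrate 1 gave 2 higher and 1 lower, and leaving out Nkx castrate 2 gave 1 higher. The genes higher numbered 0 to 3 without a library in each Nkx intact comparison, and the call of Srxn1 after castration was lost without either Nkx intact library. The shares of all tested genes called in these comparisons were 8.61%, 11.3% and 16.9%, as given above. Whether the genes of this response bear on the metallothioneins was not tested.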
